A study of Rattus norvegicus with 12 samples.

Results

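Nnat, Plagl1, Meg3, Mest, Nap1l5, Impact, Gnas, Ube3a, Slc22a3 and Cobl are genes that are imprinted in at least some rodent tissues. All probe sets whose single annotated gene symbol was one of these names were taken, which gave 20 probe sets for 10 genes, of 31099 probe sets and 14217 named genes on the Affymetrix rat genome array that was used. A probe set is a group of short oligonucleotides that together read 1 transcript, and its MAS5 signal is a level in arbitrary units. Messenger RNA was measured on 12 arrays, 3 described as biological replicates for each of 4 groups, all from the inbred Dark Agouti (DA) rat strain. Lines RAH-6 and RAH-2 (RahES as a pair) are embryonic stem (ES) cells that are haploid and androgenetic, that is, their single genome is paternal. DA5-3 is a diploid ES cell line. All 3 lines were grown in N2B27-2i, a serum-free medium with inhibitors of the ERK and GSK3 kinases. The fourth group, called round sperm cells in the labels, was freshly isolated. The diploid ES cells are 1 line, so ploidy, parental origin of the genome, line and handling cannot be told apart, and the p-values measure the spread between the replicates of these lines.

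Imprinted genes are expressed from only the maternal or only the paternal copy, because the copies carry different DNA methylation from egg and sperm at control regions. In mouse, Nnat, Plagl1, Mest, Nap1l5 and Impact are expressed from the paternal copy. Meg3 is expressed from the maternal copy, and Ube3a (in neurons), Slc22a3 (in placenta), Cobl (in yolk sac) and the main Gnas transcript (in some tissues) favour the maternal copy. Such methylation can be lost or gained during culture of ES cells. The arrays do not tell parental copies apart, and a level says nothing about the copy it came from.

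Promoter windows from RefSeq (build GRCr8, 250 bases before to 50 after a gene's start) were found for 9 of the 10 genes, all but Nnat, in 12 windows. They were searched on both strands for TGCCGC, which reads as its reverse complement on the opposite strand, the hexamer that the zinc finger protein ZFP57 recognizes at methylated imprinting control regions in mouse. The windows of Plagl1, Meg3 and Nap1l5 held it, 3 of 12, against 11.7% of the 33469 windows of the whole table. These sequences are shown because they are the windows of members described below that carry the motif, which is in capitals, with Plagl1 at chr1:9297214-9297513 (plus strand), Meg3 at chr6:134273806-134274105 (plus strand) and Nap1l5 at chr4:89354655-89354954 (minus strand).
Plagl1: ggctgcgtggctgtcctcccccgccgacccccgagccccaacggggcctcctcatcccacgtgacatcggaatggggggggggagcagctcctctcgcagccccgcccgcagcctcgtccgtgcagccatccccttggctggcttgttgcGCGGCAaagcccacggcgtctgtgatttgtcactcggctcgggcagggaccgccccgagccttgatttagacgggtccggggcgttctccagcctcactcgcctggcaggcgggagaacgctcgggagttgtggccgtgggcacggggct
Meg3: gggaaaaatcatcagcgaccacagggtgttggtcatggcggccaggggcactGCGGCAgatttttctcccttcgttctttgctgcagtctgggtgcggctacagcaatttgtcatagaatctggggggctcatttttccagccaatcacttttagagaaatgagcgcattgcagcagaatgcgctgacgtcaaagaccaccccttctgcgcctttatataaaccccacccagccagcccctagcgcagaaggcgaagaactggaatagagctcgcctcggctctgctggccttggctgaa
Nap1l5: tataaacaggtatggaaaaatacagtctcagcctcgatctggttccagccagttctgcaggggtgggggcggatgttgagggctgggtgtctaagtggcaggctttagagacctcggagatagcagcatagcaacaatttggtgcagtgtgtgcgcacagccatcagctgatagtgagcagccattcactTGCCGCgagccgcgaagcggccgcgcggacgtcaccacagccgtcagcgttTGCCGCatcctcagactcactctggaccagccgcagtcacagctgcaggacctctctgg
Nap1l5 held the motif on the strand shown at 2 places, and the others held it once, on the opposite strand. The dinucleotide CG, where rodent DNA is methylated, occurred 29 times in the Plagl1 window, 13 times in that of Meg3 and 17 times in that of Nap1l5, against a median of 7 over all windows. The motif itself contains a CG, and member windows without the motif held from 1 to 50, both in windows of Cobl. A match describes the letters only, and the array does not tell which start site was used.

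Of 11 pluripotency markers on the array, 9 averaged at least 100 in each ES line, against 3 in round sperm cells. Sox2, a pluripotency factor, read 5327 to 5559 in RAH-6, 6682 to 8516 in RAH-2 and 7261 to 8626 in DA5-3, against 1.30 to 10.1 in round sperm cells. Klf4, which is on the same list, went the other way, with 3435 to 3667 in RAH-6, 4207 to 4319 in RAH-2 and 5734 to 6672 in DA5-3, against 6273 to 7280 in round sperm cells. Nr0b1 of that list did so too, at low signals, with at most 35.1 in ES cells, against 102.8, 98.1 and 50.9 in round sperm cells. The protamine gene Prm1 read at most 37.1 in ES cells, against 61201 to 71856 in round sperm cells. Markers of fibroblasts, 22 genes all on the array, summed to 21699 to 22576 in RAH-6, 15778 to 21851 in RAH-2 and 61473 to 66277 in DA5-3, against 2575 to 2918 in round sperm cells. Fn1 alone read 13693 to 15302 in RahES and 14844 to 14916 in DA5-3, against 20.4 to 36.8 in round sperm cells. Without it the sums were 7275 to 7417 in RAH-6, 2085, 7770.5 and 2425 in RAH-2 and 46557 to 51417 in DA5-3. Those of round sperm cells were then 2551, 2897 and 2634, above replicates 1 and 3 of RAH-2. RAH-2 replicate 2 thus stood with RAH-6, above the other RAH-2 arrays, and 7 of the 22 markers in RAH-6 and 8 in RAH-2 stayed below 100 on every array, against 3 in DA5-3. Col1a1 read 354 to 424 in RAH-6, 89.2, 543 and 123 in RAH-2 and 5793 to 6123 in DA5-3. The 11 blood and macrophage markers on the array summed to 568 to 987 in ES cells, against 15716 to 16986 in round sperm cells, where 3 of them were below 100 on every array. Aif1 made up 11705 to 13262 of the round sperm sums, and without it they were 536 to 985 in ES cells, against 3724 to 4012 in round sperm cells. Laptm5 went the other way, with 195 to 539.8 in ES cells, against 74.8 to 93.6 in round sperm cells. Klf4, Nr0b1, Fn1, Col6a1, Aif1 and Laptm5 were singled out after their values were seen, as were the Sertoli cell genes named next. In ES cells the 6 Leydig cell markers summed to 98.4 to 194.5, against 708 to 1030.2 in round sperm cells. The 8 Sertoli cell markers on the array summed to 13701 to 21613 in ES cells, against 1354 to 1569 in round sperm cells. Rhox5 alone read 13096 to 14986 in ES cells. Wt1, Clu and Cldn11 were higher on every round sperm array than on any ES array. Extraembryonic endoderm markers, 17 genes that share Sparc with the fibroblast list, summed to 9212 to 11351 in RahES and 19044 to 19792 in DA5-3. In round sperm cells they summed to 1627 to 1783. The ratio of 3' to 5' signal for Gapdh, which grows as RNA is degraded, was 1.11 to 1.16 in RAH-6, 1.23 to 1.30 in RAH-2, 1.35 to 1.69 in DA5-3 and 1.78 to 2.48 in round sperm cells. The same ratio for actin was 2.94 to 3.28 in RAH-6, 3.99 to 4.93 in RAH-2, 4.62 to 8.54 in DA5-3 (highest in replicate 1) and 3.62 to 4.72 in round sperm cells. The part of these other cell types and of RNA quality in the results below was not tested. In bulk samples, fewer cells of a type and less RNA per cell cannot be told apart.

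The first question was how the androgenetic haploid lines differ from the diploid line. Differences were fitted with limma over all probe sets with a signal of at least 100 on at least 3 arrays, and a change was called where the p adjusted by Benjamini-Hochberg was below 0.05 and the log2 fold change at least 1 in size. Of the 20 member probe sets 15 could be tested, at least 1 for each gene, and the other 5 were too dim. In RahES against DA5-3, 3 were called higher and 2 lower, 5 of 15 tested, where 6.58% of 15823 probe sets were called (3.38% higher, 3.20% lower). The members called higher were Nnat, Plagl1 and Slc22a3 and those called lower were Nap1l5 and 1 of the probe sets of Ube3a. Slc22a3 and Nap1l5 passed the signal limit only through the side where they were high, so that their difference is in part a condition of being tested. Fold changes are on the scale of log2(signal + 16), with standard errors, and adjusted p-values are from limma. The median log2 fold change over all tested probe sets was 0.02, so a member's change stands against almost no general shift.

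**Figure D1:**
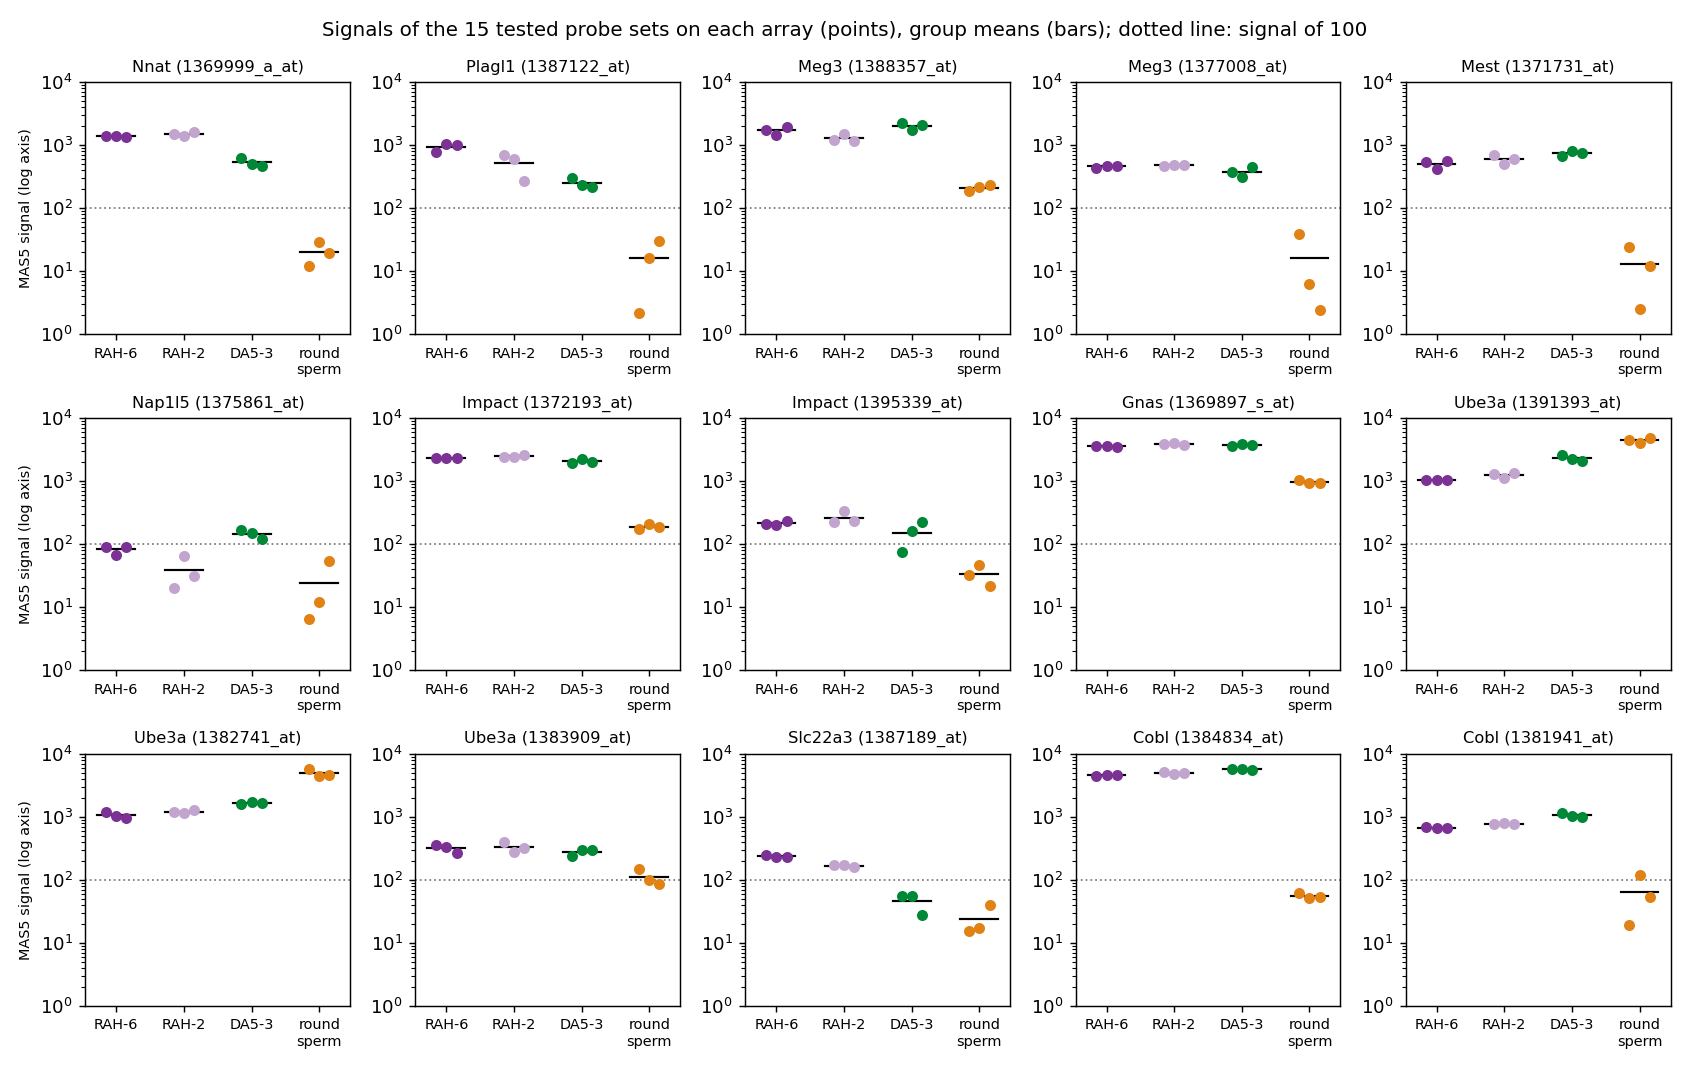
Signal in MAS5 units (log axis) of each of the 15 tested probe sets on each array, with 3 points per group, a bar at the group mean and a dotted line at a signal of 100. Nnat, Plagl1 and Slc22a3 have higher means in both RahES lines than in DA5-3, and Ube3a 1391393_at and 1382741_at are the probe sets whose round sperm cells lie above all ES cells.

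Among the paternally expressed members, Nnat encodes neuronatin, a small membrane proteolipid of the endoplasmic reticulum known from developing brain. Its signals were 1402, 1417 and 1364 in RAH-6 and 1528, 1405 and 1615 in RAH-2, against 628, 508 and 475 in DA5-3. All 6 RahES arrays were above all DA5-3 arrays, and the 2 haploid lines overlapped with each other. The rise was 1.36 ± 0.09 in RAH-6 against DA5-3 (adjusted p = 3.77e-07, limma) and 1.48 ± 0.09 in RAH-2 against DA5-3 (adjusted p = 2.71e-07). Between the lines the difference was -0.12 (95% interval -0.32 to 0.09, adjusted p = 0.442). In round sperm cells Nnat read 11.9, 29.2 and 19.1, below the limit of 100 on every array. The order of the group means was thus RAH-2, RAH-6, DA5-3 and round sperm cells, and the neighbours that did not differ beyond their spread were RAH-2 and RAH-6.

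Plagl1 encodes a zinc finger transcription factor that restrains cell proliferation. Its signals were 788, 1053 and 1009 in RAH-6 and 705, 615 and 273 in RAH-2, against 308, 234 and 215 in DA5-3. RAH-6 lay above both other lines without overlap, whereas replicate 3 of RAH-2 fell inside the range of DA5-3. Plagl1 rose by 1.85 ± 0.27 in RAH-6 against DA5-3 (adjusted p = 0.000126, limma). In RAH-2 against DA5-3 the value was 0.94 ± 0.27 (adjusted p = 0.0134), short of the size limit, and without RAH-2 replicate 3 it was 1.35 (adjusted p = 9.45e-05) and called, as it was without DA5-3 replicate 1 (1.08, adjusted p = 0.0139). The mean of both lines against DA5-3 rose by 1.40 ± 0.23 (adjusted p = 0.000318). Round sperm cells read 2.14, 16.2 and 30.0.

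Mest, an enzyme of the alpha/beta hydrolase fold that marks early mesoderm in mouse, went the other way without reaching the size limit. It read 541, 421 and 559 in RAH-6 and 700, 508 and 601 in RAH-2, against 676, 805 and 758 in DA5-3. RAH-6 was below every DA5-3 array, and RAH-2 overlapped DA5-3 through 1 array, replicate 1. The difference of RahES from DA5-3 was -0.43 (95% interval -0.68 to -0.18, adjusted p = 0.00654, limma), which leaves out a change of the size that is called. In round sperm cells it read 23.8, 2.49 and 12.2. Nap1l5, a relative of the nucleosome assembly proteins, was below 100 on all RahES arrays. It read 90.2, 66.7 and 89.1 in RAH-6 and 20.3, 64.1 and 31.5 in RAH-2, against 165, 151 and 120.3 in DA5-3. DA5-3 was above all other arrays, and Nap1l5 was at least 1.44-fold lower in RahES (adjusted p = 0.00132). It was called in RAH-2 against DA5-3 (adjusted p = 0.000483) and, in size, not in RAH-6 (-0.72 ± 0.28, adjusted p = 0.0462). Without any 1 of the DA5-3 arrays it could not be tested, because only 2 arrays were then above 100.

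Impact, whose protein dampens the kinase Gcn2 that senses amino acid shortage, has 4 probe sets, of which 2 were bright enough to test. For 1372193_at the signals were 2352, 2343 and 2291 in RAH-6 and 2381, 2410.4 and 2605 in RAH-2, against 1925, 2264 and 2006 in DA5-3. All RahES arrays were above DA5-3, but the difference was small, 0.22 ± 0.06 (adjusted p = 0.00687, limma). Set 1395339_at differed in the same direction by 0.68 ± 0.24 (adjusted p = 0.0304), with a call in RAH-2 against DA5-3 only without DA5-3 replicate 3 (1.12, adjusted p = 0.00391), and its groups overlapped, with 203 to 330.5 in RahES against 74.9, 161 and 221 in DA5-3. The 2 dim sets, 1375310_at and 1375754_at, read 34.4 to 101 in RahES and 41.3 to 69.3 in DA5-3.

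Among the maternally expressed members, Meg3 is a long non-coding RNA of the Dlk1-Dio3 region. Its 2 probe sets moved in opposite directions between RahES and DA5-3. Set 1388357_at read 1776, 1483 and 1961 in RAH-6 and 1204, 1521 and 1158 in RAH-2, against 2248, 1730 and 2063 in DA5-3. Only RAH-2 was below DA5-3 without overlap, and the difference of RahES from DA5-3 was -0.42 ± 0.11 (adjusted p = 0.00592, limma). Set 1377008_at read 443, 476 and 462 in RAH-6 and 474, 478 and 489 in RAH-2, against 376, 318 and 444 in DA5-3, a difference of 0.31 ± 0.10 (adjusted p = 0.0163). Both differences passed the adjusted p and neither reached the size limit, so no direction can be given for Meg3 as a gene. The annotation used here does not tell which part of Meg3 each set reads.

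Slc22a3 encodes an organic cation transporter. It read 247, 232 and 235 in RAH-6 and 175, 172 and 159 in RAH-2, against 55.7, 56.3 and 27.2 in DA5-3, which is under the limit of 100 on every array. It was at least 2.38-fold higher in RAH-6 (adjusted p = 4.75e-06, limma) and at least 1.69-fold higher in RAH-2 (adjusted p = 4.52e-05). The 2 lines did not overlap with each other, but their difference of 0.46 ± 0.20 did not pass (adjusted p = 0.146). In round sperm cells it read 15.5, 17.1 and 40.3, which overlaps DA5-3.

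Ube3a encodes a ubiquitin ligase that is required in neurons, and 3 of its 4 probe sets could be tested. Set 1391393_at read 1042, 1039 and 1023 in RAH-6 and 1283, 1125 and 1332 in RAH-2, against 2597, 2207 and 2092 in DA5-3. Every RahES array was below every DA5-3 array, and the fall was 1.13 ± 0.09 on the log2 scale in RAH-6 (-1.13, adjusted p = 7.09e-07, limma) with -0.87 ± 0.09 in RAH-2 (adjusted p = 7.14e-06), short of the size limit. For RahES as a whole the value was -1.003 ± 0.07, at the limit. It was -0.91 without DA5-3 replicate 1, -0.97 without RAH-2 replicate 2 and just under the limit, at -0.9987, without RAH-6 replicate 3. With an offset of 64 it was -0.97. Without the arrays with extreme control probe sets, which are named in the last section, it was -0.88. Set 1382741_at read 945 to 1289.9 in RahES against 1608, 1708 and 1680.5 in DA5-3, again without overlap (-0.55 ± 0.07, adjusted p = 3.8e-05). Set 1383909_at read 272 to 407 in RahES against 241, 303 and 303 in DA5-3 and did not follow the others (0.20 ± 0.13, adjusted p = 0.221). Set 1390099_at was below 100 on all 12 arrays.

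Cobl encodes cordon-bleu, an actin nucleator, and both of its probe sets were lower in RahES by an amount under the size limit. Set 1384834_at read 4544, 4691 and 4681 in RAH-6 and 5174, 4777 and 5067 in RAH-2, against 5784, 5716 and 5596 in DA5-3. Set 1381941_at read 682, 657 and 676 in RAH-6 and 763, 808 and 764 in RAH-2, against 1138, 1037 and 1006 in DA5-3. The 3 lines did not overlap in either set, with RAH-6 lowest. RahES differed from DA5-3 by -0.24 ± 0.04 (adjusted p = 0.000295, limma) and -0.54 ± 0.06 (adjusted p = 1.52e-05). Gnas, which encodes the alpha subunit of the stimulatory G protein beside other transcripts of an overlapping locus, had 1 bright set, 1369897_s_at, whose suffix marks probes that can match more than 1 transcript family. It read 3624, 3639 and 3488 in RAH-6 and 3881, 4071 and 3755 in RAH-2, against 3637, 3831 and 3722 in DA5-3. Both RahES lines overlapped DA5-3, and the difference had a 95% interval of -0.09 to 0.10. The other Gnas sets, 1387906_a_at and 1390263_at, stayed below 100 on all 12 arrays.

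**Figure D2:**
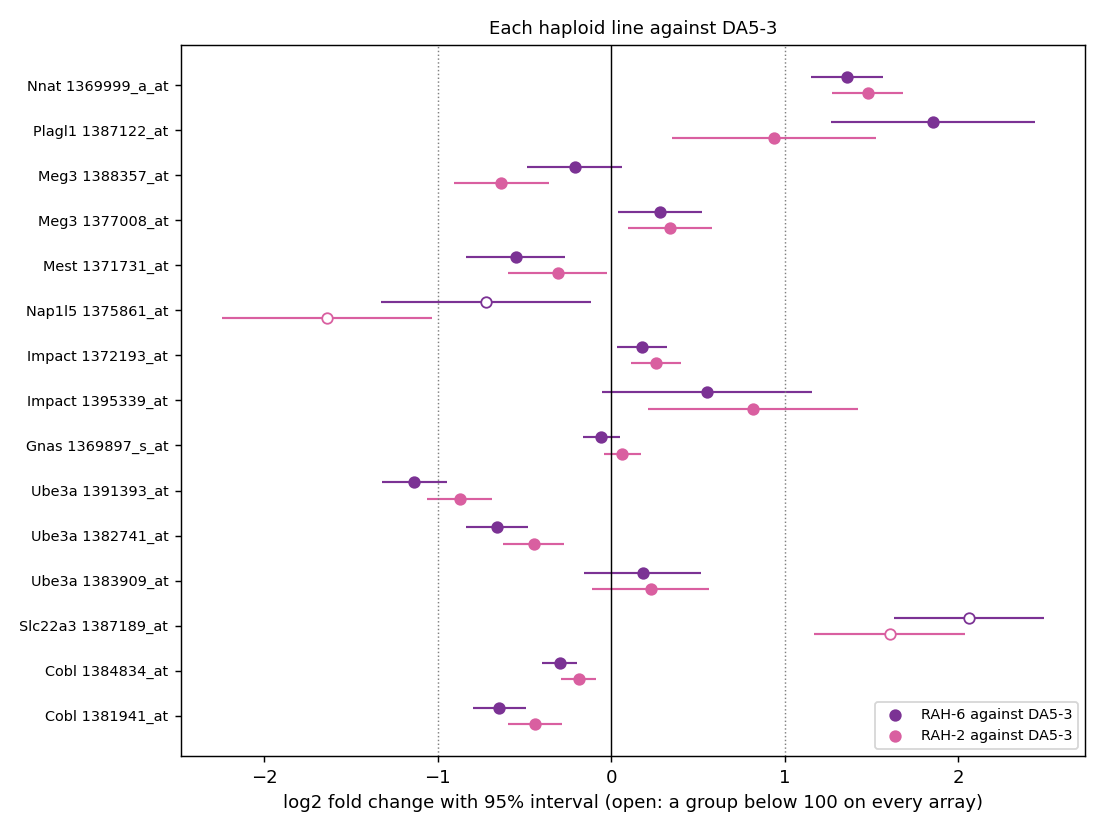
Log2 fold change of each haploid line against DA5-3 with its 95% interval for the 15 tested probe sets, with RAH-6 above RAH-2 in each row and dotted lines at the size limit of 1. Open points have a group below 100 on every array, so that only a lower bound of the fold is known. Nnat and Slc22a3 pass the size limit in both lines, Plagl1 and Ube3a 1391393_at only in RAH-6, and Nap1l5 only in RAH-2.

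Both lines were set against the same DA5-3 arrays, so their values are given side by side. In RAH-6 against DA5-3, 4 of the 15 tested member probe sets were called (3 higher, 1 lower), where 7.84% of all probe sets were called (4.35% higher, 3.49% lower). In RAH-2 against DA5-3, 3 were called (2 higher, 1 lower), where 6.27% were called (3.03% higher, 3.24% lower). The difference between the lines was tested directly in RAH-6 against RAH-2. There limma called 0 of the 15, where 0.651% of all were called, although 9 had an unadjusted p under 0.05, where 30.0% of all did, and 3 passed the adjusted p without the size limit, where 14.8% of all did. The count of 3 is near that share. They were Plagl1 (0.91 ± 0.27, adjusted p = 0.0414) and Meg3 1388357_at (0.42 ± 0.13, adjusted p = 0.0418), both higher in RAH-6, and Nap1l5, for which no difference is given because both lines were below 100 on every array. Plagl1 was called between the lines without RAH-2 replicate 1 (1.17, adjusted p = 0.026) and without RAH-2 replicate 2 (1.07, adjusted p = 0.0344). Without the arrays with extreme control probe sets it was called as well (1.07, adjusted p = 0.0272). Over the 20 alternatives its difference ran from 0.51 to 1.17, and its adjusted p reached 0.154, so it did not pass under all of them. Of the fibroblast markers 3 of 18 tested were called higher in RAH-6 and 0 lower, with a median of 0.90, while RAH-2 replicate 2 was above every RAH-6 array for Col1a1.

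For other imprinted genes, a list of 22 paternally expressed and a list of 28 maternally expressed genes were used. In RahES against DA5-3, 6.58% of all probe sets were called (3.38% higher, 3.20% lower), with a median of 0.02. There 0 of 9 tested paternally expressed genes were called higher and 1 lower, with a median of -0.23. That gene was the growth factor Igf2 (271 ± 58.2, n = 6, against 2793 ± 147, n = 3, adjusted p = 4.17e-09, limma). Of 13 tested maternally expressed genes 0 were called higher and 4 lower, with a median of -0.28. The 3 with the smallest adjusted p were the growth factor receptor adaptor Grb10 (-1.93 ± 0.11), the cell cycle inhibitor Cdkn1c (-1.21 ± 0.11) and the matrix proteoglycan Dcn (-1.91 ± 0.26), and Dcn is also one of the fibroblast markers. Fibroblast markers themselves had 15 of 18 tested called lower in RahES, with a median of -2.24. Of 13 tested extraembryonic endoderm markers 2 were called higher and 5 lower in RahES, with a median of -0.64. In RAH-2 against DA5-3 the iodothyronine deiodinase Dio3, which shares a region with Meg3, was called higher (509.9 ± 46.0 against 228 ± 23.3, 1.11 ± 0.11, adjusted p = 7.27e-06). In RAH-6 against DA5-3 Dio3 differed in the same direction, under the size limit (0.77 ± 0.11, adjusted p = 9.91e-05), and the difference between RAH-6 and RAH-2 did not pass (-0.34 ± 0.11, adjusted p = 0.0573). Between the lines only Phlda2, a placental growth regulator, was called of the 2 lists (199 ± 5.81 in RAH-6 and 55.0 ± 12.3 in RAH-2, adjusted p = 0.000331), and it was below 100 on every RAH-2 array.

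**Figure D3:**
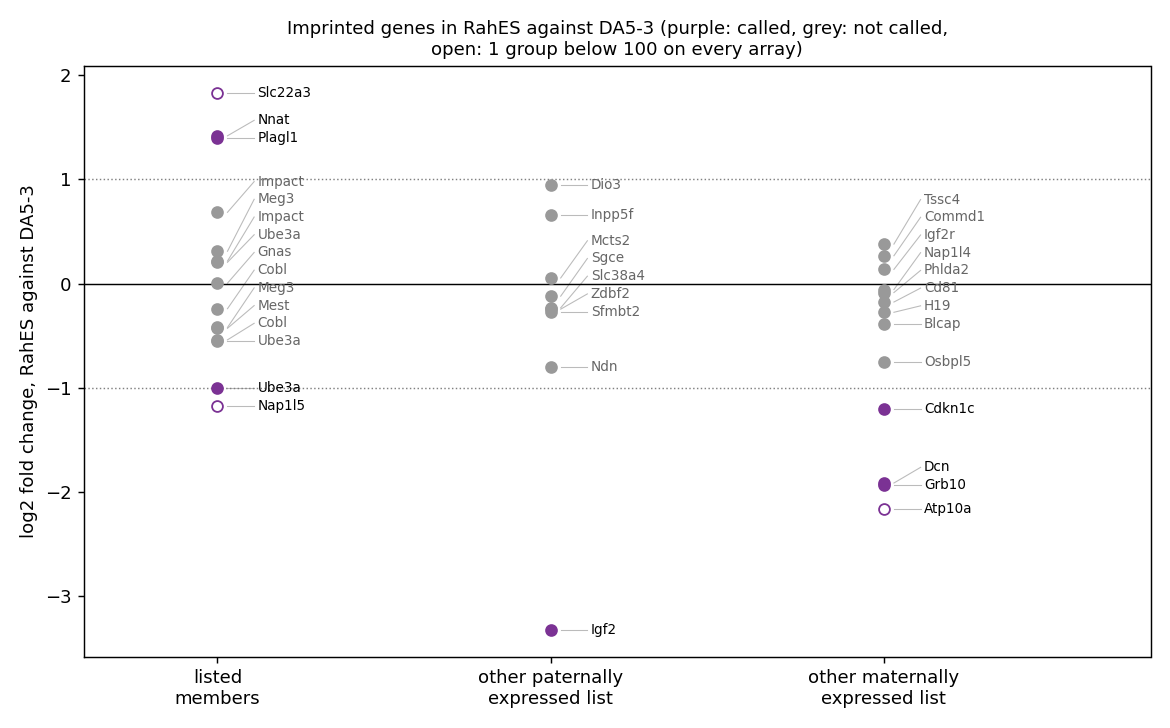
Log2 fold change of RahES against DA5-3 for the member probe sets (1 point per set) and for 1 probe set per gene of the lists of other paternally and maternally expressed genes, with dotted lines at the size limit of 1. Called changes are purple, and open points have a group below 100 on every array. The called genes of both lists, 1 paternally and 4 maternally expressed, are all lower in RahES, whereas members were called in both directions.

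The other question was how ES cells compare with round sperm cells, the haploid male germ cells. In RahES against round sperm cells, 15 of the 15 tested member probe sets were called, 13 higher and 2 lower, where 71.8% of 18132 probe sets were called (45.7% higher, 26.1% lower). In DA5-3 against round sperm cells 13 of 15 were called, 12 higher and 1 lower, where 72.5% of all were called (46.0% higher, 26.6% lower). In each comparison 8 of the 15 tested sets had a group below 100 on every array, so many of them were tested only because the other group was high, and the counts are a description. The median over all probe sets was 0.75 in both comparisons, so fold changes here include a general shift, and with each array centred on its median they shifted by -0.77 (RahES) and -0.73 to -0.72 (DA5-3). The 2 comparisons share the round sperm arrays.

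**Figure D4:**
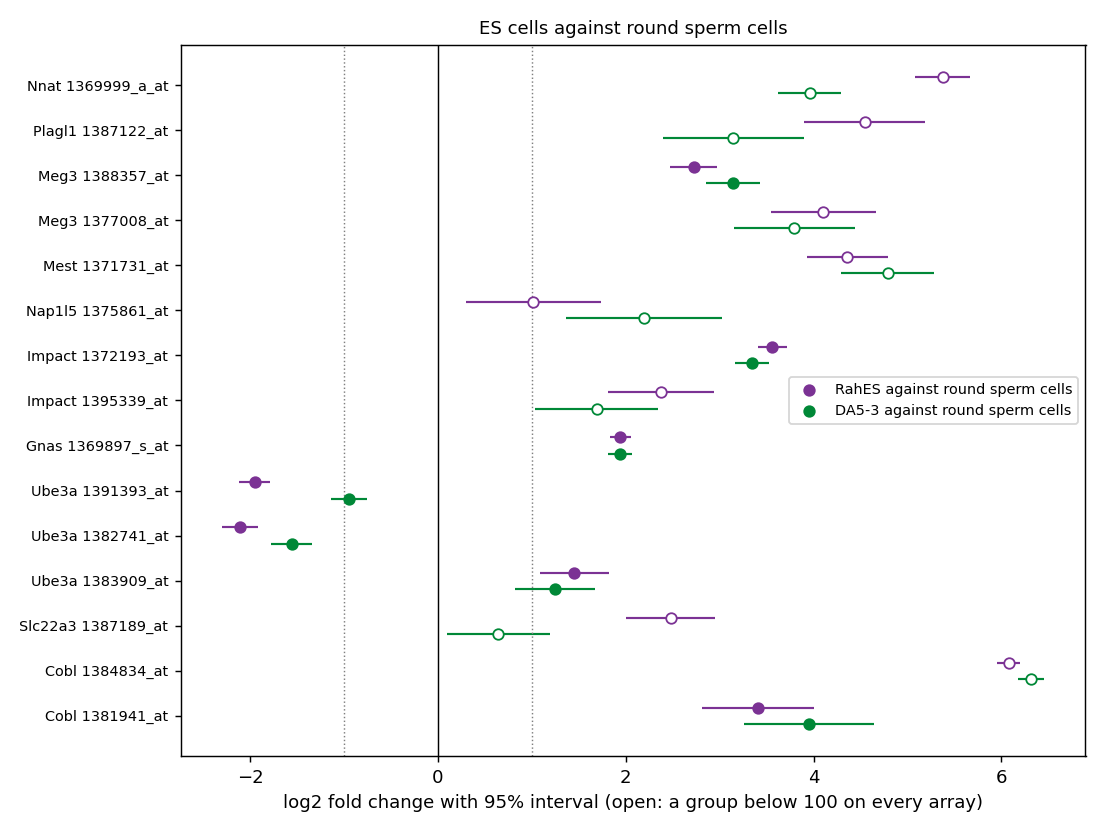
Log2 fold change of RahES and of DA5-3 against round sperm cells with its 95% interval for the 15 tested probe sets, with RahES above DA5-3 in each row and dotted lines at the size limit of 1. Open points have a group below 100 on every array. Ube3a 1391393_at and 1382741_at are the sets that lie below 0.

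Of the paternally expressed members, Nnat, Plagl1, Mest and Nap1l5 were below 100 on every round sperm array. Nnat was at least 14.5-fold higher in RahES and at least 5.33-fold higher in DA5-3 than in round sperm cells. Plagl1 was at least 6.80-fold higher in RahES and at least 2.49-fold higher in DA5-3, and Mest at least 5.49-fold and at least 7.45-fold higher in the same order. Impact 1372193_at was measurable in all groups, with 171, 211 and 185 in round sperm cells, and was higher by 3.56 ± 0.07 in RahES (adjusted p = 3.51e-15, limma) and 3.35 ± 0.08 in DA5-3 (adjusted p = 4.36e-14). Impact 1395339_at was below 100 on every round sperm array, and was at least 2.35-fold higher in RahES and at least 1.39-fold higher in DA5-3, a call lost in DA5-3 with each array centred on its median (0.96). Nap1l5 read 6.36, 11.98 and 53.0 in round sperm cells and was below 100 in both RahES and round sperm cells, so no fold is given between them, although it was called. That call was lost under 8 of the 17 alternatives in which Nap1l5 was tested. In DA5-3 it was at least 1.44-fold higher than in round sperm cells.

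Of the maternally expressed members, every tested set of Cobl, Meg3 and Gnas was higher in RahES and in DA5-3 than in round sperm cells. Slc22a3 was higher in RahES, and the sets of Ube3a, described next, went in both directions. Cobl 1384834_at was below 100 on every round sperm array (61.6, 52.1 and 53.3) and at least 48.2-fold higher in RahES and at least 57.0-fold higher in DA5-3. Cobl 1381941_at read 19.4, 121 and 53.5 in round sperm cells, and was higher by 3.41 ± 0.28 in RahES and by 3.95 ± 0.32 in DA5-3. Slc22a3 was at least 2.00-fold higher in RahES (adjusted p = 6.67e-08), and in DA5-3 and round sperm cells it was below 100 on every array, so no fold is given. Meg3 1388357_at remained measurable in round sperm cells, at 188, 217 and 234, and was higher by 2.72 ± 0.12 in RahES (adjusted p = 1.11e-11, limma) and by 3.14 ± 0.13 in DA5-3 (adjusted p = 1.38e-11). Meg3 1377008_at read 39.1, 6.16 and 2.44 in round sperm cells and was at least 4.70-fold higher in RahES and at least 3.76-fold higher in DA5-3. Gnas 1369897_s_at read 1027, 925 and 934 in round sperm cells, and was higher by 1.94 ± 0.05 in RahES and by 1.94 ± 0.06 in DA5-3.

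In Ube3a, 2 of the 3 tested probe sets were higher in round sperm cells than in every ES array. Set 1391393_at read 4482, 4093 and 4769 there, and fell by 1.95 ± 0.08 on the log2 scale in RahES (-1.95, adjusted p = 4.32e-12, limma) with -0.95 ± 0.09 in DA5-3, which was not called. The DA5-3 difference was called with each array centred on its median (-1.68), without DA5-3 replicate 1 (-1.04) and without replicate 2 of round sperm cells (-1.01). The same held without the arrays with extreme control probe sets (-1.03). Set 1382741_at read 5840.3, 4495 and 4565 in round sperm cells, and was lower by -2.11 ± 0.09 in RahES and by -1.56 ± 0.10 in DA5-3. Set 1383909_at ran the opposite way, with 149, 97.8 and 87.4 in round sperm cells, and was higher by 1.45 ± 0.17 in RahES and 1.25 ± 0.20 in DA5-3. With each array centred on its median 1383909_at was no longer called in either comparison (0.69 and 0.52), while its direction stayed. The order of the means of 1391393_at was round sperm cells, DA5-3, RAH-2 and RAH-6, and RAH-6 and RAH-2 were the neighbours whose difference did not pass the test (-0.26 ± 0.09, adjusted p = 0.0598).

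In RahES against round sperm cells, 71.8% of all probe sets were called (45.7% higher, 26.1% lower), with a median of 0.75. In the lists of other imprinted genes, 7 of 9 tested paternally expressed genes were called higher there and 0 lower, with a median of 2.34. The 3 with the smallest adjusted p, the amino acid transporter Slc38a4, Dio3 and the sarcoglycan Sgce, were all below 100 on every round sperm array. Of 15 tested maternally expressed genes 3 were called higher and 3 lower, with a median of 0.45. The non-coding RNA H19 was higher by 4.26 ± 0.07 (adjusted p = 2.7e-16, limma). The lipid flippase gene Atp10a, a neighbour of Ube3a in the rodent genome, read 2069 ± 47.5 in round sperm cells (n = 3) and was below 100 on every RahES array. In DA5-3 against round sperm cells 7 of the 9 paternally expressed genes were also called higher and 0 lower, with a median of 3.22. Of the 15 maternally expressed genes 7 were called higher there and 4 lower, with a median of 0.93. In that comparison 72.5% of all probe sets were called (46.0% higher, 26.6% lower).

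Genes with the most similar pattern over the 12 arrays were found by the root mean square difference of log2 values after centring each gene on its mean. For Nnat they were Tnfrsf26 (0.233), Rbpms (0.271) and Ier2 (0.306), and for Plagl1 they were Epb41l4a (0.387), Sts (0.449) and Reep5 (0.453). For Meg3 1388357_at they were Anxa5 (0.164), Etv1 (0.171) and Jpt2 (0.187), and for Mest they were Itgb1 (0.179), Nudt5 (0.196) and Foxe1 (0.196). The differences are on the log2 scale over 12 arrays, and for Nnat, Plagl1 and Mest they include round sperm signals near background. Tnfrsf26, for instance, averaged 2021 in RAH-6, 2116 in RAH-2, 669 in DA5-3 and 30.4 in round sperm cells.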

How the data were processed

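The authors deposited log2 MAS5 signals for 12 Affymetrix rat genome arrays; MAS5 is named per the submitters' processing notes, and its version is not given in the sources used here. A deposited report file whose array names match no label was not used, and no scan dates were used. The number of arrays limits the precision.

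Signals were scaled to a trimmed mean of 500, 16 was added, and log2 values of 15823 probe sets (9 ES arrays) or 18132 (12 arrays), with at least 100 on at least 3 arrays, were fitted with limma 3.58.1 in R 4.3.3 with a variance trend. The 57 control probe sets were left out. The 100 limit and the offset of 16 are choices. Where every array of a group was below 100, a fold is the other group's geometric mean over 100, given as "at least". The fit was checked on simulated data. Gene symbols came from GEO's platform annotation, where 20826 probe sets had 1 symbol, 436 several and 9780 none; all 10 members were also in RefSeq (GRCr8).

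None of the 66 pairs of arrays was identical (replicate r 0.980 to 0.990 over probe sets). Same-numbered arrays did not deviate together (r from -0.08 to 0.06 over 18 pairs). Named genes were all members, up to 3 called genes per imprinted list and comparison, the 3 most similar genes of Nnat, Plagl1, Meg3 and Mest, and Sox2, Prm1 and Col1a1 as markers. The other markers named were singled out after their values were seen. The members and lists were chosen with earlier results of these data known. Alternatives covered offset, filter, normalization, variance trend, probe sets per gene, arrays in the fit and a replicate block.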

Additional observations from a re-analysis of the deposited data

Results flagged for a closer look

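In 2 members the effects of the haploid lines against DA5-3 differed by the direct test of RAH-6 against RAH-2 with limma, without the size limit. Plagl1 was 0.91 higher in RAH-6 on the log2 scale, with all 3 RAH-6 arrays above all RAH-2 arrays. Meg3 1388357_at was 0.42 higher, with overlapping arrays, while Meg3 1377008_at differed by -0.06. Under the alternatives Plagl1 ran from 0.51 to 1.17 (adjusted p from 0.026 to 0.154, limma). Meg3 1388357_at ran from 0.33 to 0.54 (adjusted p from 0.00719 to 0.156), so neither passed under all of them. With Nap1l5, which also passed but was below 100 on every array of both lines, 3 of 15 tested members passed, where 14.8% of all probe sets did. Fibroblast marker sums without Fn1 were 7275 to 7417 in RAH-6 and 2085, 7770.5 and 2425 in RAH-2, and their part in these differences was not tested. With 3 arrays per group, single arrays were not tested as outliers.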

How the results depend on the processing

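Counts of called member probe sets are compared here. In RahES against DA5-3 the count of 5 was 3 with an offset of 64 and 3 without the arrays with extreme control probe sets (replicate 1 of DA5-3 and of round sperm cells, and replicate 2 of RAH-2), and 3 to 5 when 1 array was left out. With an offset of 64 Nap1l5 and Ube3a ended below the size limit. Without DA5-3 replicate 1, where the count was 3, Ube3a fell below the limit and Nap1l5 was no longer tested. The count in RAH-6 against DA5-3 stayed at 4 over the arrays left out, and that in RAH-2 against DA5-3 ranged from 2 to 4. The count of 0 between RAH-6 and RAH-2 was 1 with an offset of 1, 1 without the arrays with extreme controls, and 0 to 2 with 1 array left out; without RAH-2 replicate 1 it was 1 and without RAH-2 replicate 2 it was 2. Against round sperm cells the ranges with 1 array left out were 14 to 15 for RahES and 12 to 14 for DA5-3. The RahES count of 15 was 13 under quantile normalization and 13 under median centring. With 1 probe set per gene, where fewer sets were tested, the counts were 10 for RahES and 8 for DA5-3. Median centring and leaving out the arrays with extreme controls each gave 2 lower calls in DA5-3, against 1. The replicate block left the member counts at 5, 4, 3, 0, 15 and 13 in the order of the comparisons above. Over the 15 tested sets in 6 comparisons there were 1827 values under alternatives, of which 1785 kept their call and direction, 20 lost the call, 12 gained it and 10 changed sign, all 10 in differences that were not called. Alternatives under which a set was not tested give no value and are left out of these counts. Nap1l5 had values under 15 of 20 alternatives in RahES against DA5-3 and 17 of 23 in RahES against round sperm cells. For Gnas 1369897_s_at the changes of sign were, in RahES against DA5-3, -0.0611 with median centring, -0.03 without the arrays with extreme controls and within -0.0146 to 0.0228 with 1 array left out, and in RAH-2 against DA5-3 -0.0145 with median centring. For Ube3a 1383909_at in RAH-6 against RAH-2 they were 0.0645 without RAH-6 replicate 3 and 0.0948 without RAH-2 replicate 1, within -0.1726 to 0.0948 with 1 array left out. For Slc22a3 in DA5-3 against round sperm cells it was -0.0816 with median centring. Signals below 100 limit Nap1l5, Slc22a3 and 8 of the 15 sets against round sperm cells. The marker sums without Fn1 or Aif1 were added after the data were seen.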
